A study of Mus musculus with 8 samples.

Results

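The clustered protocadherin genes of the mouse lie in a single array on chromosome 18. They were taken as every GENCODE vM21 protein-coding gene of that chromosome whose symbol begins with Pcdha, Pcdhb or Pcdhg, which gave 57 of the 21938 protein-coding genes placed on chromosomes 1 to 19, X and Y. There were 14 genes in the alpha cluster, 22 in the beta cluster and 21 in the gamma cluster. The symbol Pcdha11 is carried by 2 gene identifiers, and both were counted. The array was described together with 2 Mb on each side, from contact counts between bins of 50 kb.

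In situ HiC, which joins and sequences pieces of DNA that were close together in the nucleus, was performed on mouse naive B cells activated in culture with lipopolysaccharide (LPS) at 25 µg/ml. There were 8 libraries in 4 groups, with 2 biological replicates each: 3 h and 10 h after activation, 33 h with division imminent, and 33 h before S phase (pre-S). By the study's methods the donors were male mice of 6 to 12 weeks. Cells of every group had been isolated as naive B cells by negative selection and labelled with the division dye CTV, and by the study's methods the activated cells were sorted as undivided, with no selection on cell cycle phase outside the pre-S group. The 3 h, 10 h and imminent division cells came from C57BL/6 mice and the pre-S cells from C57BL/6 FUCCI mice, whose transgene reports cell cycle phase and was used to sort the pre-S cells. The study's methods also name a Pep3b background. In every comparison with pre-S cells the strain, the sort gate and the stage cannot be told apart. No untreated cells and no neuronal cells, the cells in which these genes are best known, were analysed here. Contact counts hold no expression values, so neither the B cell label nor the activity of the genes could be checked.

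Clustered protocadherins are cell surface adhesion proteins that neurons use to tell self from non-self. In the alpha and gamma clusters a row of variable first exons, each with its own promoter, is spliced to shared constant exons at the end of the cluster, while each beta gene is a single exon. In neurons, promoter choice in the array rests on looping to enhancers by CTCF and cohesin and on DNA methylation, and SMCHD1 is a known repressor of the array. Chromatin in the nucleus divides into an A compartment, mostly gene-rich and active, and a B compartment, mostly inactive.

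The libraries held 88703088 to 218945191 read pairs, of which 70.9 to 75.1% joined 2 positions of the same chromosome. Both imminent division libraries were the deepest. The second imminent division library stood apart in the sex chromosomes, with 3.74% of its read ends on X and 0.0490% on Y against 2.39 to 2.85% and 0.0805 to 0.124% in the other 7 libraries, which goes against a library of male cells like the others. Without this library the changes from 10 h to imminent division were 0.43 on the log2 scale within the array, 0.58 with the upstream flank, -0.37 with the downstream flank and 0.15 from flank to flank, each past an FDR of 5% in edgeR. Insulation was then called in 17 array bins and the differential bin pairs anchored in the array numbered 17. Within the array, 3566 to 13653 read pairs per library joined different bins, so that sums over the array were well counted while single bin pairs far apart held few reads. Replicates were separate biological samples, and a group of 2 gives little information on spread, so all tests shared a single estimate of it over the 4 groups. The contrasts of both 33 h groups with 10 h share the 10 h libraries.

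The array spanned chr18:36930184-37841873 of GRCm38, or 911.69 kb, and all its members were on the plus strand. The alpha cluster lay at chr18:36930184-37187661, the beta cluster at chr18:37264938-37524479 and the gamma cluster at chr18:37661793-37841873. The gaps between the clusters measured 77.3 kb and 137.3 kb. The array filled 19 bins, numbered here 1 to 19 from the alpha end, with the alpha cluster in bins 1 to 6, the beta cluster in bins 8 to 13 and the gamma cluster in bins 16 to 19. A member started in 15 of these bins. Bin 17 alone held the starts of Pcdhga6 to Pcdhga10 with 3 Pcdhgb genes, so at this resolution single promoters could not be separated. 5 other protein-coding genes started in these bins, namely Slc25a2 and Taf7 in bin 15, in the gap before the gamma cluster, and the gene models Gm42416, Gm37013 and Gm37388, which run from the alpha to the gamma cluster. The upstream flank held 43 protein-coding gene starts and the downstream flank 17.

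The clusters also differed in base composition, which the choice of members did not use. The GC content of the alpha and beta bins averaged 40.03% and 40.3%, near the autosomal median of 41.4%, against 45.1% in the gamma bins and 44.7% in each flank. CpG dinucleotides averaged 11.4 per kb in alpha, 10.1 in beta and 18.1 in gamma bins and 10.6 and 10.3 in the upstream and downstream flank, against an autosomal median of 7.75 per kb. Single array bins ranged from 6.09 per kb in bin 4 to 23.2 in bin 2.

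**Figure D1:**
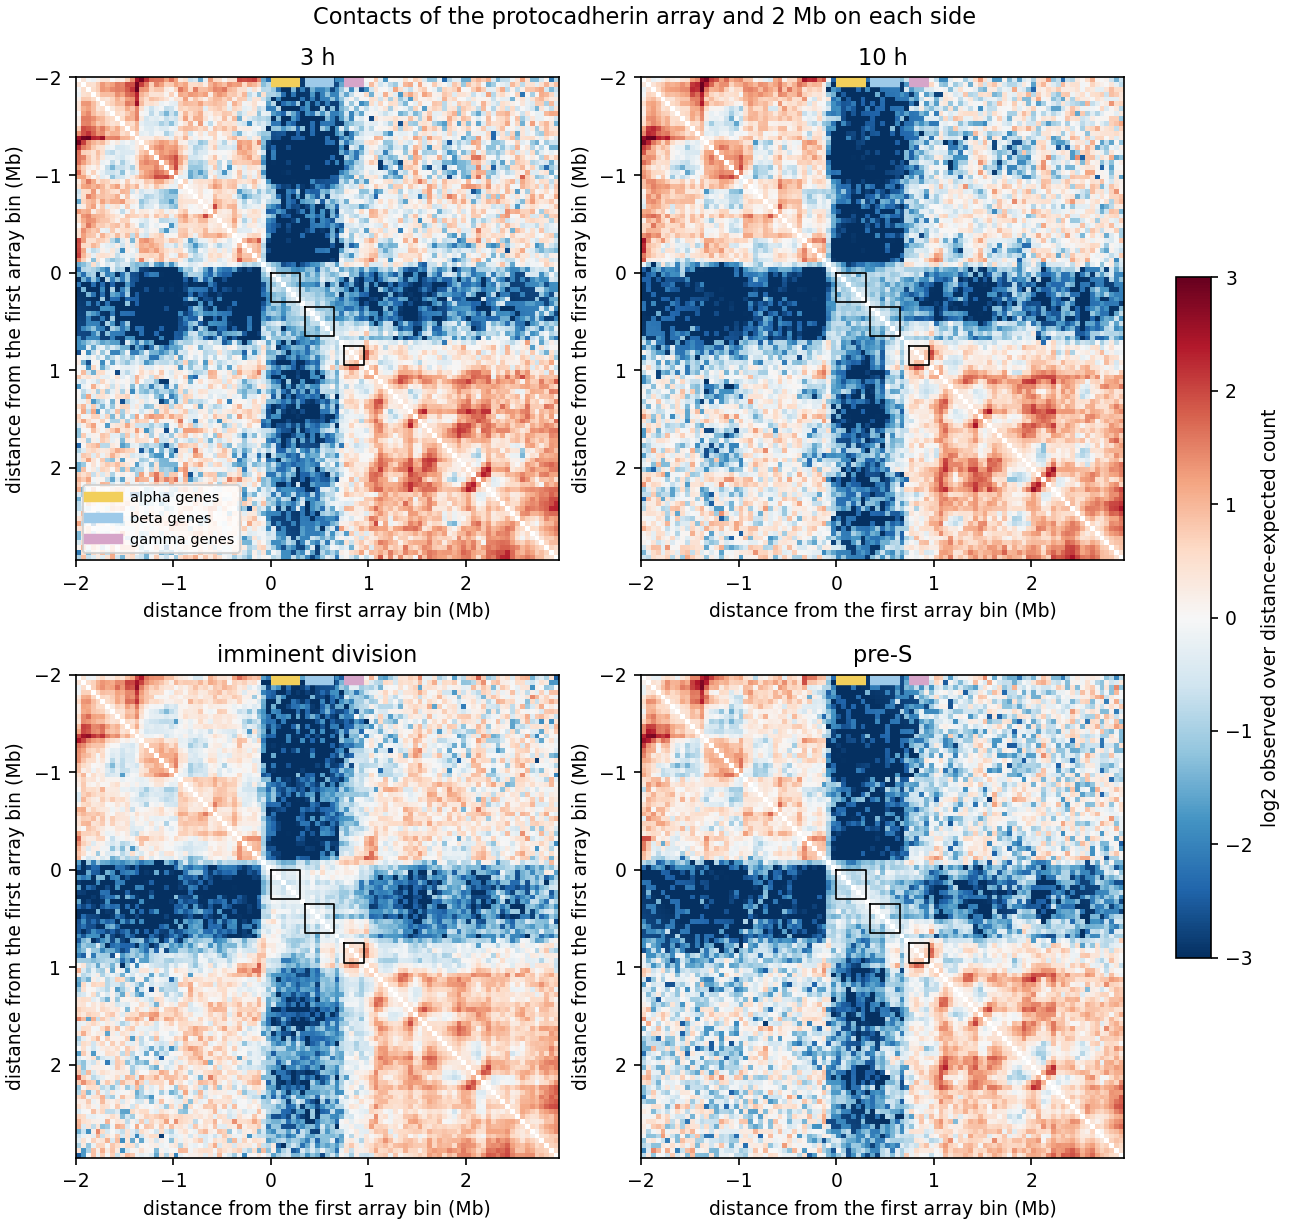
Contact map of the array and its flanks for the 4 groups, as log2 of observed over expected counts per pair of 50 kb bins, both axes giving the distance in Mb from the start of the first array bin. The alpha and beta bins appear as a band of few contacts with either flank, while the gamma bins join the downstream flank.

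Contacts were expressed as observed over expected, where the expected count is the mean of all kept autosomal bin pairs at the same distance in the same library, so that a value of 1 is the autosomal average. Over the whole array the ratio between different bins was 0.640 and 0.664 in the 3 h libraries, 0.653 and 0.650 in the 10 h libraries, 0.880 and 0.844 in the imminent division libraries, and 0.747 and 0.744 in the pre-S libraries. The 2 imminent division libraries were the highest, the pre-S libraries came next, and neither overlapped with the 3 h or 10 h libraries, which overlapped with each other. The median window of the same width had a ratio of 0.904 to 0.928, so the array contained fewer contacts than most such windows in every library.

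Contacts within the array rose from 10 h to imminent division by 0.40 ± 0.05 on the log2 scale (SE), a 1.32-fold increase with an adjusted p of 2.31e-05 by edgeR's quasi-likelihood test over 2467 windows. In this contrast 48.8% of windows were called, 26.7% higher and 22.1% lower, and the median change was 0.05. The change of the array was larger than that of 99.7% of windows. From 10 h to pre-S the rise was 0.19 ± 0.05 (edgeR adjusted p = 0.00234), in a contrast that called 69.4% of windows and where 70.3% of windows had a lower change. The imminent division cells exceeded the pre-S cells by 0.21 ± 0.05 (edgeR adjusted p = 0.0319), where 1.86% of windows were called. This last call was lost without the second imminent division library (0.24, edgeR adjusted p = 0.194), without the first 10 h library (0.21, edgeR adjusted p = 0.059) and with a pre-S library left out (0.21 for either, edgeR adjusted p = 0.159 and 0.179). Multiplying the interchromosomal coverage of each bin into the expected count ended the call of the pre-S rise (0.10, edgeR adjusted p = 0.0605). Between 3 h and 10 h the change was -0.00 ± 0.05 (edgeR adjusted p = 1.00), and 0.122% of windows were called.

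The array as a whole made few contacts with the 2 Mb before it. The ratio with the upstream flank was 0.244 and 0.233 in the 3 h libraries, 0.196 and 0.206 in the 10 h libraries, 0.301 and 0.292 in the imminent division libraries, and 0.206 and 0.215 in the pre-S libraries. The imminent division libraries were above all others and the 10 h and pre-S libraries overlapped. In no library did more than 0.373% of the 2416 windows with a full count have a lower ratio with the 2 Mb before them, and the median window had 0.913 to 0.960. The upstream contacts rose by 0.56 ± 0.05 from 10 h to imminent division (edgeR adjusted p = 0.000136, 66.2% of windows called) and were 0.49 ± 0.05 higher at imminent division than in pre-S cells (edgeR adjusted p = 0.00234, 10.1% called). The changes from 3 h to 10 h, of -0.24 ± 0.06, and from 10 h to pre-S, of 0.07 ± 0.06, did not pass the test (edgeR adjusted p = 0.161 and 0.325, with 0.0414% and 62.9% of windows called). With bin coverage in the expected count the first of these was -0.26 and passed (edgeR adjusted p = 0.00431).

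Contacts with the downstream flank moved the other way. The ratio was 0.764 and 0.705 in the 3 h libraries, 0.749 and 0.761 in the 10 h libraries, 0.586 and 0.632 in the imminent division libraries, and 0.684 and 0.700 in the pre-S libraries. The imminent division libraries were the lowest and did not overlap with any other group. The fall from 10 h to imminent division was -0.31 ± 0.06 on the log2 scale (edgeR adjusted p = 0.00285), in a contrast that called 66.3% of windows, 39.7% higher and 26.6% lower. The other contrasts did not pass the test, with 0.04 ± 0.06 from 3 h to 10 h (edgeR adjusted p = 0.903, 0% called), -0.13 ± 0.06 from 10 h to pre-S (edgeR adjusted p = 0.111, 63.3% called) and -0.18 ± 0.06 between imminent division and pre-S cells (edgeR adjusted p = 0.102, 11.2% called). This last difference passed when a 3 h library was left out (-0.18 for either, edgeR adjusted p = 0.0266 and 0.0278), with DESeq2 (-0.18, adjusted p = 0.0396) and with bin coverage in the expected count (-0.33, edgeR adjusted p = 1.17e-05), and was -0.13 and -0.24 without the first and second imminent division library. The change from 10 h to pre-S was 0.07 (edgeR adjusted p = 0.279) with bin coverage in the expected count.

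The flanks contacted each other across the array at about the autosomal average. The flank-to-flank ratio was 1.16 and 1.12 in the 3 h libraries, 1.04 and 1.02 in the 10 h libraries, 1.143 and 1.27 in the imminent division libraries, and 0.9003 and 0.924 in the pre-S libraries. The pre-S libraries were the lowest, the 10 h libraries came next, and the imminent division libraries overlapped with those at 3 h. Imminent division cells were above 10 h cells by 0.23 ± 0.05 (edgeR adjusted p = 0.00517, 60.3% of windows called) and above pre-S cells by 0.41 ± 0.05 (edgeR adjusted p = 0.00126, 29.6% called). Pre-S cells were below 10 h cells by -0.18 ± 0.05 (edgeR adjusted p = 0.0181, 65% called), and this difference turned to 0.15 (edgeR adjusted p = 0.00329) when the interchromosomal coverage of each bin was multiplied into the expected count. Its call was lost when any one of the 10 h or pre-S libraries was left out, with -0.16 to -0.20 and edgeR adjusted p-values of 0.058 to 0.115. The rise from 10 h to imminent division was 0.15 (edgeR adjusted p = 0.0273) without the second imminent division library, 0.34 with bin coverage in the expected count and 0.35 with flanks of 1 Mb, and the difference from pre-S was 0.19 with that coverage. The change of -0.14 ± 0.05 from 3 h to 10 h did not pass (edgeR adjusted p = 0.256, 0.759% called).

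**Figure D2:**
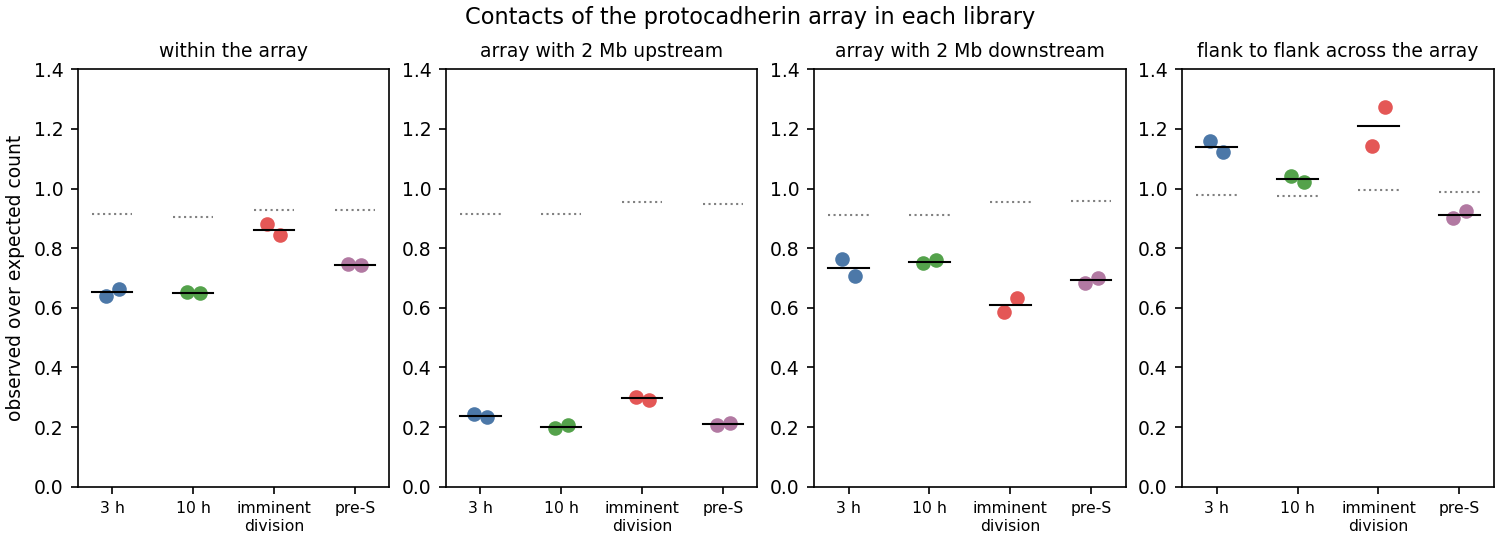
Observed over expected contacts of the array in each of the 8 libraries, within it, with each 2 Mb flank and between the flanks, with points for libraries, bars for group means and the median of autosomal windows of the same width for comparison. Imminent division libraries are highest within the array and with the upstream flank and lowest with the downstream flank.

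The 3 clusters differed in these contacts. Within the alpha cluster the ratio was 0.580 and 0.595 in the 3 h libraries, 0.585 and 0.587 in the 10 h libraries, 0.841 and 0.767 in the imminent division libraries, and 0.698 and 0.677 in the pre-S libraries. The beta cluster had nearly the same levels, from 0.573 to 0.641 in the 3 h and 10 h libraries, 0.806 and 0.753 at imminent division, and 0.707 and 0.743 in pre-S cells. Within the gamma cluster the ratio was 1.36 to 1.52 in all 8 libraries. The alpha and beta clusters were thus below the autosomal average in every library and the gamma cluster above it.

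Between alpha and gamma, the clusters farthest apart, the ratio was 0.247 and 0.256 in the 3 h libraries, 0.304 and 0.275 in the 10 h libraries, 0.636 and 0.662 in the imminent division libraries, and 0.368 and 0.394 in the pre-S libraries. The groups did not overlap, and imminent division exceeded 10 h by 1.17 on the log2 scale. These ratios rested on 47 to 404 read pairs per library. Between alpha and beta the means were 0.462 ± 0.022 (SD, n = 2) for 3 h, 0.485 ± 0.015 for 10 h, 0.809 ± 0.062 for imminent division and 0.614 ± 0.006 for pre-S cells. Between beta and gamma they were 0.630 ± 0.049, 0.645 ± 0.001, 0.967 ± 0.001 and 0.815 ± 0.056 in the same order. No test was run on these blocks. In each of the 3 blocks between clusters, the libraries of either 33 h group lay above both 10 h libraries.

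The clusters also differed in what they contacted outside the array. With the 2 Mb downstream, the gamma cluster had a ratio of 1.46 and 1.31 in the 3 h libraries, 1.44 and 1.45 in the 10 h libraries, 1.00 and 1.07 in the imminent division libraries, and 1.26 and 1.27 in the pre-S libraries. The alpha cluster had 0.158 to 0.287 with the same flank and the beta cluster 0.346 to 0.436. The imminent division libraries were the lowest for gamma and the highest for alpha. With the 2 Mb upstream, the gamma cluster had 0.509 to 0.738 although it lies farthest from that flank, against 0.136 to 0.241 for alpha and 0.120 to 0.233 for beta.

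**Figure D3:**
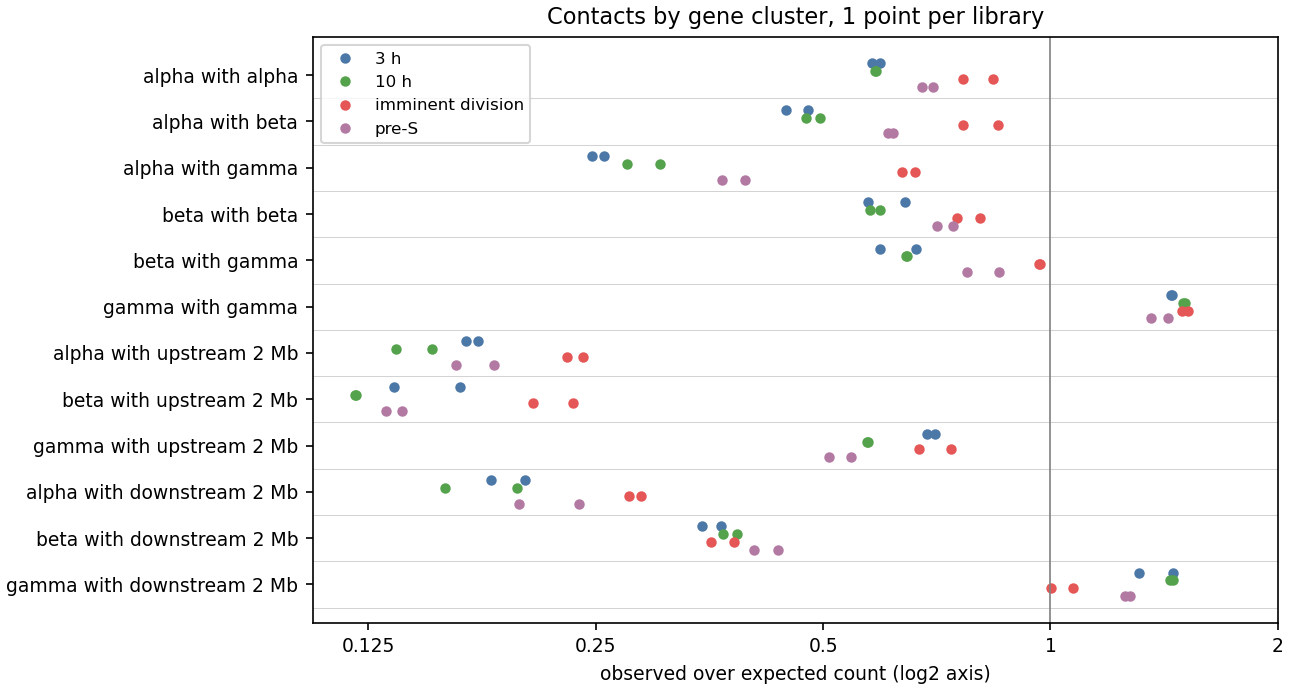
Observed over expected contacts between the alpha, beta and gamma clusters and with the 2 Mb flanks, with a point for each library. The mean of the alpha with gamma block rises from 0.289 at 10 h to 0.649 at imminent division, while that of gamma with the downstream flank falls from 1.45 to 1.04.

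Of the 171 pairs of different array bins, 13 had more contacts than the autosomal average over all libraries together. The highest were bins 17 and 19 at 1.80 and bins 18 and 19 at 1.78, which join variable gamma genes with Pcdhgc3, Pcdhgc4 and Pcdhgc5. All 6 pairs among the gamma bins were above 1. Of the other pairs among the 10 highest, 3 joined bin 13, which holds Pcdhb20, Pcdhb21 and Pcdhb22 at the end of the beta cluster, with gamma bins 17, 18 and 19, at 1.41, 1.20 and 1.13, and the last joined bin 12 (Pcdhb15 to Pcdhb19) with bin 17 at 1.07. The lowest pair was bins 3 and 19, at 0.169.

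Across these 171 pairs, the ratio was higher in both imminent division libraries than in both 10 h libraries in 144 pairs, or 84.2%, where 30.8% of all autosomal pairs 50 to 900 kb apart were. The number of array pairs falls with distance, and the shares of all pairs were not weighted to match this. It was lower in 1 pair, or 0.585%, against 18.7% of all pairs. Pre-S libraries were both above both 10 h libraries in 73 pairs, or 42.7% against 25.6% of all pairs, and both below in 20, or 11.7% against 19.6%. Imminent division libraries were both above both pre-S libraries in 105 pairs, or 61.4% against 22.1%, and both below in 5, or 2.92% against 18.3%. Between 3 h and 10 h the libraries were apart in both directions, with 36 pairs higher at 10 h (21.1% against 17.7%) and 26 lower (15.2% against 16.8%). Pairs of the same array share bins, so they are not independent of each other.

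Differential interactions (DIs) were tested on 1458577 autosomal bin pairs, of which 558 had an anchor in the array and 157 lay within it. Of the 558, 32 passed an FDR of 5% by edgeR from 10 h to imminent division, where 2.01% of all pairs did. Of these 23 were higher and 9 lower at imminent division, where 0.691% and 1.32% of all pairs were. DESeq2 called none of the 558 and gave 73 of the 558 an unadjusted p under 0.05. For bin pairs DESeq2 used its own size factors in place of the loess offsets, so the effects of test and normalisation cannot be told apart. Leaving out the 10 h libraries in turn gave 9 calls (first) and 3 (second), and leaving out the imminent division libraries in turn gave 9 (first) and 17 (second). TMM factors gave 67 calls, 49 higher and 18 lower, and bin coverage in the offsets gave 19, 12 higher and 7 lower. The direction of the 32 followed the place of the partner. All 20 called pairs within the array were higher, all 3 with the upstream flank were higher, and all 9 with the downstream flank were lower. Over the pairs tested the median change was 0.64 within the array, 0.70 with the upstream flank and -0.59 with the downstream flank, against 0.03 over all pairs. Pairs were kept for testing by their mean abundance over all libraries. A pair with few reads could thus enter through the group where it was high, and these medians depend in part on that filter.

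The pair with the smallest p joined bin 1 (Pcdha1, Pcdha2 and Pcdha3) with bin 2 (Pcdha4 to Pcdha9). It held 84 and 153 read pairs in the 3 h libraries, 98 and 131 in the 10 h libraries, 260 and 282 in the imminent division libraries, and 127 and 94 in the pre-S libraries, and rose by 0.62 ± 0.12 (edgeR adjusted p = 0.000684). Bin 1 also gained contact with bin 5, which holds Pcdhac2, an alpha gene of the C type, from 14 and 15 read pairs at 10 h to 64 and 74 (1.37 ± 0.28, edgeR adjusted p = 0.000942). Raw counts of libraries differ in depth as well as in contact, and the tests take the depth into account.

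The called pair within the array with the largest change joined bin 6, with the end of the alpha cluster, and bin 17, with Pcdhga6 to Pcdhga10. It held 1 and 8 read pairs in the 3 h libraries, 0 and 3 in the 10 h libraries, 22 and 23 in the imminent division libraries, and 4 and 3 in the pre-S libraries (edgeR adjusted p = 0.00241 from 10 h to imminent division). The abundance filter took the mean over all libraries, and most reads of this pair came from imminent division. Its place among the tested pairs, and so its gain, is in part selected by that group. Further gains joined bin 6 with bin 10 (Pcdhb8, 1.33 ± 0.31, edgeR adjusted p = 0.00644) and bin 14, in the gap before gamma, with bin 17 (0.87 ± 0.22, edgeR adjusted p = 0.0128). None of the 6 pairs among gamma bins was called, and their median change was 0.14.

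The losses ran from the gamma end of the array to the downstream flank, with 7 of the 9 anchored in gamma bins. Bin 18, which holds Pcdhgb7, Pcdhga11 and Pcdhga12, lost contact with the bin of an Arhgap26 start. This pair held 2 and 11 read pairs in the 3 h libraries and 18 and 17 in the 10 h libraries. It held 7 and 10 in the deeper imminent division libraries and 8 and 6 in the pre-S libraries. The change from 10 h to imminent division was -1.90 ± 0.42 (edgeR adjusted p = 0.00298), and 3 h was not tested against imminent division. Bin 17 lost contact with the bin of Pcdh1, a non-clustered protocadherin (-1.07 ± 0.27, edgeR adjusted p = 0.0117), and bin 16 with that of Gnpda1, an enzyme of hexosamine metabolism (-1.40 ± 0.35, edgeR adjusted p = 0.0128).

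The other contrasts gave few calls. None of the 558 pairs was called between 3 h and 10 h, where 0.000617% of all pairs were and 40 of the 558 had an unadjusted p under 0.05 in edgeR. DESeq2 called none either. From 10 h to pre-S 2 pairs were called, both higher, where 0.594% of all pairs were called, 0.339% higher and 0.255% lower. They joined bin 8 with bin 9, within the beta cluster (0.52 ± 0.13, edgeR adjusted p = 0.0232), and bin 6 with bin 10 (1.33 ± 0.36, edgeR adjusted p = 0.0424). Between imminent division and pre-S cells 2 pairs were called, where 0.36% of all pairs were, 0.146% higher and 0.214% lower. Bin 7 with bin 16 was higher at imminent division and bin 18 with a downstream bin lower. Between imminent division and pre-S cells, bin coverage in the offsets gave 9 calls, 2 higher and 7 lower, and TMM factors gave 4, 3 higher and 1 lower. DESeq2 called no pair in either contrast, with 8 and 22 at an unadjusted p under 0.05. For pre-S against 10 h, 1 pair was called without the second pre-S library and none with the first pre-S or one 10 h library left out, and for imminent division against pre-S cells, 1 without the first imminent division or the second pre-S library and none with the second imminent division, the first pre-S or one 10 h library left out.

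Insulation was measured for each bin as log2 of observed over expected contacts between the 500 kb before it and the 500 kb after it, so that a low value marks a boundary. The deepest boundary of the region was not in the array but just before it, in the flank bin chr18:36800063-36850040, which holds no protein-coding gene start. Its value was -3.41 and -3.70 in the 3 h libraries, -3.70 and -3.72 in the 10 h libraries, -2.85 and -3.07 in the imminent division libraries, and -3.73 and -3.32 in the pre-S libraries. The imminent division libraries were the highest and the other groups overlapped. Over all libraries 7 of 46537 autosomal bins had a lower mean, and the autosomal median was -0.25.

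From that minimum the value rose through the array to its gamma end. Bin 1, with Pcdha1, Pcdha2 and Pcdha3, was the lowest array bin in every library, at -2.82 and -2.96 in the 3 h libraries, -3.01 and -2.85 in the 10 h libraries, -1.88 and -2.02 in the imminent division libraries, and -2.55 and -2.48 in the pre-S libraries. Bin 19, with Pcdhgc3, Pcdhgc4 and Pcdhgc5, had the highest mean of the array, at 0.21 and 0.03 in the 3 h libraries, 0.20 and 0.19 in the 10 h libraries, -0.28 and -0.15 in the imminent division libraries, and 0.05 and -0.00 in the pre-S libraries. The imminent division libraries were thus the highest in bin 1 and the lowest in bin 19, and in bin 19 the 3 h libraries overlapped with both the 10 h and the pre-S libraries. A second, shallow dip lay inside the beta cluster, with a mean of -1.33 in bin 11 (Pcdhb9 to Pcdhb14). The downstream flank had no comparable boundary, and its lowest bin, next to the array, had a mean of -0.32.

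Insulation changed in 18 of the 19 array bins from 10 h to imminent division by edgeR at an FDR of 5%, 16 of them higher and 2 lower, where 68.1% of autosomal bins were called, 45.2% higher and 22.8% lower. The median change of the array bins was 0.81, against 0.12 over all bins. All 6 alpha bins rose, by 0.80 to 0.97, and all 6 beta bins rose, by 0.80 to 0.92. Of the 4 gamma bins, bin 16 rose by 0.21 ± 0.08, bin 17 did not pass the test (-0.04), and bins 18 and 19 fell, bin 19 by -0.41 ± 0.06 on the log2 scale (edgeR adjusted p = 7.01e-05). In the flanks 24 of 40 upstream bins and 30 of 40 downstream bins fell, and the 2 upstream bins that rose were those next to the array. Neighbouring bins share most of the bin pairs they sum, so these calls are not independent.

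In pre-S cells 15 array bins rose against 10 h and 1 fell, where 59.4% of autosomal bins were called, 36.9% higher and 22.5% lower. The median change was 0.30 against 0.06 over all bins, and all 12 alpha and beta bins rose. The bin that fell was bin 19, and its change turned to 0.052 (edgeR adjusted p = 0.437) with bin coverage in the expected count. In the flanks 39 of 40 downstream bins fell, and of the 40 upstream bins 16 fell and 1 rose. Leaving out a 10 h library gave 10 calls (first) or 3 (second), leaving out a pre-S library gave 6 (first) or 5 (second), and squares of 20 bins on each side gave 2. Between imminent division and pre-S cells 14 array bins were higher at imminent division and 1, bin 19, was lower, where 13.3% of autosomal bins were called, 9.18% higher and 4.16% lower. Leaving out a pre-S library gave 6 calls (first) or 8 (second). Between 3 h and 10 h no array bin was called, where 1.91% of autosomal bins were and 2 of the 19 had an unadjusted p under 0.05 in edgeR. DESeq2 called none, and edgeR 1 without the first 3 h library.

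The compartment of each 100 kb bin was taken from the first principal component of the chromosome's contact correlation, positive for A and negative for B. All 40 bins of the flanks that lay wholly outside the array bins were A in every library. Of the 10 bins that cover the array, 7 were B in every library, from the bin of the first alpha gene to that of the end of the beta cluster, and the 2 that hold the gamma cluster were A in every library. The first of the 10 starts at chr18:36850037, in the upstream flank, so the upstream border could not be placed exactly at the first alpha gene. The array therefore contained a B segment of alpha and beta genes between A chromatin, with the gamma genes on the A side of the border.

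The border bin, chr18:37550228-37649895, lies in the gap between beta and gamma and holds Slc25a2, a mitochondrial ornithine transporter gene, and Taf7, a gene for a subunit of the general transcription factor TFIID. Its component was 0.43 and 0.37 in the 3 h libraries, 0.31 and 0.28 in the 10 h libraries, 0.02 and 0.12 in the imminent division libraries, and -0.02 and -0.03 in the pre-S libraries. The value was lower in both 33 h groups than at 3 h and 10 h, without overlap, and only the pre-S libraries were below 0. Against 10 h the change was -0.23 ± 0.04 at imminent division and -0.32 ± 0.04 in pre-S cells (limma adjusted p = 0.000659 and 9.3e-05).

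The component of 5 of the 10 array bins changed from 10 h to imminent division by limma, where 23% of all bins were called, 8.81% higher and 14.2% lower. The bins of Pcdha4 to Pcdha12 and of Pcdhb1 to Pcdhb7 rose. So did the bin with the end of the alpha cluster and part of the gap after it. These rises were 0.16 to 0.18, to values still well below 0, and the border bin and the bin of Pcdhga1 to Pcdhga10 fell. Outside the array, 4 of 20 downstream bins rose, by 0.12 to 0.25, and no upstream bin was called. Calls in the array numbered 3 without the second 10 h or the second imminent division library and 9 after quantile normalization of the component. In pre-S cells 5 bins fell against 10 h and none rose, where 25.1% of bins were called, 2.66% higher and 22.4% lower. Calls numbered 3 with the first 10 h library or one pre-S library left out, 1 without the second 10 h library and 2 after quantile normalization. Between imminent division and pre-S cells 6 array bins were higher at imminent division, all 6 in the B segment, where 17.8% of bins were called, 15.5% higher and 2.25% lower. In the flanks, 4 of 20 downstream bins were also higher, by 0.16 to 0.21, and 1 of 20 upstream bins, by 0.10. No array bin was called between 3 h and 10 h, where 3.43% were and 1 of the 10 had an unadjusted p under 0.05 in limma. Without the second 3 h library there were 3 calls.

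Contacts beyond 2 Mb on the same chromosome were then summed over A and over B bins. The A and B calls came from the same contact counts, so these sums are no separate evidence for the division. The alpha and beta clusters contacted distal B bins at 1.56 to 2.00 times the expected count and distal A bins at 0.658 to 0.885 times. The gamma cluster did the reverse, at 1.83 to 2.07 with A bins and 0.715 to 0.824 with B bins. For the array as a whole the log2 difference between B and A contacts was 0.34 and 0.47 in the 3 h libraries, 0.47 and 0.48 in the 10 h libraries, 0.39 and 0.29 in the imminent division libraries, and 0.64 and 0.62 in the pre-S libraries. The pre-S libraries were above all others and the imminent division libraries overlapped with those at 3 h. Of all windows, 63.7% were called between imminent division and pre-S, 2.59% higher and 61.1% lower, with a median change of -0.18. From 10 h to pre-S 47.5% were called, 43.1% higher and 4.34% lower, with a median change of 0.13. The share of windows with a lower change than the array was 21.8% and 56.7% in this order. For the array, imminent division was below pre-S by -0.29 ± 0.06 (limma adjusted p = 1.53e-05) and pre-S above 10 h by 0.16 ± 0.06 (limma adjusted p = 0.0195). The second of these was lost when any one of the 10 h or pre-S libraries was left out, with 0.14 to 0.17 and limma adjusted p-values of 0.0647 to 0.179. The changes from 10 h to imminent division, of -0.13 ± 0.06, and from 3 h to 10 h, of 0.06 ± 0.06, did not pass (limma adjusted p = 0.0629 and 0.636, with 42.3% and 3.16% called). The first of these passed when a 3 h library was left out (-0.13 for either, limma adjusted p = 0.0353 and 0.035), without the first imminent division library (-0.18, limma adjusted p = 0.0303) and beyond 5 Mb (-0.17, limma adjusted p = 0.016), and was -0.078 (limma adjusted p = 0.391) without the second imminent division library. With A and B limited to the top and bottom 20% of bins by component, the difference was -0.54 between imminent division and pre-S and 0.36 from 10 h to pre-S.

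Coverage also differed between groups, but not in the order of the contacts. Interchromosomal read ends per bin, over the mean of all bins, were 1.06 to 1.141 in the alpha bins at 3 h and 10 h and 1.17 to 1.29 in the 33 h libraries, and in the gamma bins 1.46 to 1.51 and 1.32 to 1.41. The beta bins had 1.03 to 1.146 at 3 h and 10 h and 1.144 to 1.23 in the 33 h libraries, which overlapped. The upstream flank had 2.02 to 2.08 at 3 h and 10 h and 1.82 to 2.01 in the 33 h libraries, and the downstream flank 1.57 to 1.67 and 1.38 to 1.54. Downstream coverage was lowest in the pre-S libraries, while downstream contacts were lowest at imminent division. Upstream coverage was 2.04 and 2.02 at 10 h and 1.91 and 2.01 at imminent division, while upstream contacts rose. Multiplying this coverage into the expected count left the rise within the array and with the upstream flank and the downstream fall from 10 h to imminent division past the test.

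Promoter interactivity sums, for each bin with a protein-coding gene start, its contacts that stand above the distance curve. All 15 member bins had enough counts to be tested. From 10 h to imminent division 3 rose and none fell, where 49.5% of bins were called, 24.6% higher and 24.9% lower. They were bin 2 (Pcdha4 to Pcdha9), bin 12 (Pcdhb15 to Pcdhb19) and bin 13 (Pcdhb20 to Pcdhb22), with changes of 0.21 to 0.25. Bin 13, at the end of the beta cluster, had 711 and 721 normalised counts at 10 h and 815 and 889 at imminent division, a change of 0.25 ± 0.06 (edgeR adjusted p = 0.000349). The median change of the 15 bins was 0.00. DESeq2 called 1 of them.

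Another 4 bins rose from 10 h to pre-S, where 35.2% of bins were called, 18.1% higher and 17% lower. These were bin 5 (Pcdhac2), bin 8 (Pcdhb1 and Pcdhb2), bin 9 (Pcdhb3 to Pcdhb7) and bin 11 (Pcdhb9 to Pcdhb14), with changes of 0.16 to 0.21. DESeq2 called 1, TMM factors gave 11 calls, and there were 2 calls with either of the 10 h libraries left out and 1 with either of the pre-S libraries left out. Bins 8, 9 and 11 were lower at imminent division than in pre-S cells, by -0.20 to -0.27 on the log2 scale, and bin 2 was higher, by 0.28 ± 0.07 (edgeR adjusted p = 0.00437), where 16.9% of bins were called, 7.73% higher and 9.16% lower. DESeq2 called 1 bin, and edgeR 1 without the second pre-S library. No member bin was called between 3 h and 10 h, where 0.171% were and 1 of the 15 had an unadjusted p under 0.05 in edgeR. DESeq2 called none. The 4 gamma bins were not called in any contrast.

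Related genes outside the array moved in both directions. Of 18 non-clustered protocadherins and related large cadherins, 16 lay in bins that could be tested, all but Pcdh17 and Pcdh18. From 10 h to imminent division 3 of the 16 rose and 6 fell, where 24.6% of all promoter bins were called higher and 24.9% lower, and from 10 h to pre-S 3 rose and 4 fell, where 18.1% and 17% of all were. The bin of Fat3, a giant cadherin, fell by -0.42 ± 0.05 on the log2 scale at imminent division (edgeR adjusted p = 7.69e-08), the bin of Pcdh8 changed by -0.26 ± 0.05 (edgeR adjusted p = 5.37e-05), and that of Pcdh1 rose by 0.12 ± 0.04 (edgeR adjusted p = 0.00615). The 3 that rose at imminent division were Pcdh1 and Pcdh12, both in the downstream flank of the array, and Fat4. The bin of Pcdh12 also holds Dele1 and Rnf14. Pcdh10 rose in pre-S cells by 0.40 ± 0.09 (edgeR adjusted p = 0.000753).

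Of 19 regulators and effectors of clustered protocadherins, all could be tested, with 7 higher and 3 lower from 10 h to imminent division and 5 higher and 3 lower from 10 h to pre-S. The shares of all promoter bins were those given for the cadherins. The bin of Smchd1, the repressor of the array, rose in both, by 0.11 ± 0.04 and 0.17 ± 0.04 (edgeR adjusted p = 0.0075 and 0.000912), and also holds Gm4707. The bin of Ctcf, which encodes the insulator protein at these promoters, fell in both, by -0.20 ± 0.04 and -0.15 ± 0.04 on the log2 scale (edgeR adjusted p = 1.47e-05 and 0.00297), though it also holds Agrp and Ripor1. The bin of Stag1, a cohesin subunit gene, and Slc35g2 rose by 0.21 ± 0.04 at imminent division (edgeR adjusted p = 4.13e-05), and that of Ptk2b, a kinase that binds the shared protocadherin constant domain, which also holds Trim35, fell by -0.31 ± 0.04 (edgeR adjusted p = 4.11e-08). Neither list had a call between 3 h and 10 h, where edgeR gave 1 of 16 and 2 of 19 an unadjusted p under 0.05.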

How the data were processed

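The authors deposited, for each library, raw counts of HiC read pairs between bins of about 50 kb that follow MboI restriction sites. Per the labels the build was mm10 (GRCm38), and by the study's methods reads were aligned with bowtie2 and counted with diffHic. Here the bins were rebuilt from the genome and 756 of 48088 autosomal bins were left out, for over 10% unknown bases or for interchromosomal coverage more than 4 times above or below the median. All 19 bins of the array and all 80 of its flanks were kept. Windows of 19 bins were tiled over the autosomes so that the array was a window, and were kept with at least 64% of their bin pairs and a mean count of 10. Expected counts came from each library's distance curve. Counts per window, insulation bin, bin pair and promoter bin were tested by the edgeR (4.0.16) quasi-likelihood test in a one-way layout over all 8 libraries, and compartment values by limma (3.58.1), each adjusted over all features by Benjamini-Hochberg with an FDR threshold of 5%. Bin pairs needed a summed count of 10 and a mean abundance over all 8 libraries above 4-fold the interchromosomal background. Loess offsets were fitted separately under 1.5 Mb. Promoter bins needed 200 counts, over interactions 2 mean absolute residuals above the distance curve. The tests were tested on simulated data. Bin pairs named were the 10 highest of the array and, per contrast, those with the smallest p among the called. Bins named were the lowest and highest insulation of the array and the lowest of each flank. The lowest pair of the array and the dip in bin 11 were named after their values were seen. The members, gene lists and tests were chosen with earlier results of these data known, and the alternative that takes the interchromosomal density off both counts was chosen after seeing the data. DESeq2 (1.42.0), TMM factors, other expected counts, filters and bin sizes, the replicate number as a block and leaving out each library were the other alternatives. No sequence is shown.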

Additional observations from a re-analysis of the deposited data

How the results depend on the processing

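Single bin pairs held few reads and groups had 2 libraries, so counts of called bins and pairs moved more than sums over the array. Of 520 values recomputed for the comparisons, 437 kept their call, or stayed within 1.5 times for a count. Of 454 for single bins and pairs 361 kept their call, while 88 lost it, 3 gained one and 2 turned. A change of direction was counted as turned only where the main or the alternative value was called. The rise within the array from 10 h to imminent division (0.37 to 0.43 on the log2 scale with a library left out), the upstream rise (0.52 to 0.60) and the downstream fall (-0.37 to -0.26) kept their calls under every alternative run. Taking off the interchromosomal density was chosen after seeing the data.

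With interchromosomal bin coverage in the expected count, the flank-to-flank change from 10 h to pre-S turned to 0.15 and the insulation changes of bin 19 and of the next bin downstream in the same contrast to 0.052 and 0.059. The change within the array from 10 h to pre-S was then 0.10 and lost its call, while the upstream change from 3 h to 10 h (-0.26, edgeR adjusted p = 0.00431) and the downstream difference between imminent division and pre-S (-0.33, edgeR adjusted p = 1.17e-05) gained one, and 1 bin was called for insulation from 3 h to 10 h. With this coverage in the offsets, DIs numbered 19 from 10 h to imminent division (12 higher, 7 lower), 0 from 10 h to pre-S (47 at an unadjusted p under 0.05 in edgeR) and 9 between imminent division and pre-S (2 higher, 7 lower). The cause of these changes was not tested.

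The labels do not state that the replicate numbers pair the samples. Over the 6 pairs of groups, same-numbered deviations correlated from -0.90 to 0.62 over the contacts within all windows and from -0.76 to 0.25 over the insulation of all autosomal bins. With 2 libraries per group, these values cannot show whether samples were paired. With the replicate block, the difference within the array between imminent division and pre-S was 0.21 (edgeR adjusted p = 0.0671), the distal difference from 10 h to pre-S was 0.16 (limma adjusted p = 0.0526), and DIs numbered 1 from 10 h to pre-S and 0 between imminent division and pre-S (105 at an unadjusted p under 0.05 in edgeR). The block changed no other call of the comparisons and moved no other count by over 1.5 times. With the interchromosomal density taken off, the difference within the array between imminent division and pre-S was 0.21 (limma adjusted p = 0.0806). This alternative used limma on log2 ratios in place of edgeR on counts, so the effects of the density and of the test cannot be told apart.

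DESeq2 called the downstream difference between imminent division and pre-S (-0.18, adjusted p = 0.0396), 1 promoter bin in each contrast with or between the 33 h groups, and 0 DIs in every contrast, where 4, 73, 8 and 22 had an unadjusted p under 0.05. For DIs it also replaced the loess offsets by size factors. The distal change from 10 h to imminent division was -0.17 beyond 5 Mb. With 20 bins on each side, insulation was called in 2 bins from 10 h to pre-S. Quantile normalization gave 9 compartment calls from 10 h to imminent division and 2 from 10 h to pre-S, and bins of 250 kb gave 3 between imminent division and pre-S. Without the interaction filter, 1 promoter bin was called from 10 h to imminent division and 1 between imminent division and pre-S. TMM factors gave 11 promoter calls from 10 h to pre-S, all higher, and 67 DIs from 10 h to imminent division (49 higher, 18 lower) and 4 between imminent division and pre-S (3 higher, 1 lower). Without the abundance filter DIs numbered 18, 1 and 1 in the last 3 contrasts.

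With 1 library left out, the difference within the array between imminent division and pre-S was 0.18 to 0.24, the downstream one -0.24 to -0.13, the flank-to-flank change from 10 h to pre-S -0.20 to -0.16, and the distal change -0.18 to -0.078 from 10 h to imminent division and 0.14 to 0.17 from 10 h to pre-S. Insulation calls numbered 0 to 1 from 3 h to 10 h, 3 to 17 from 10 h to pre-S and 6 to 17 between imminent division and pre-S. Compartment calls numbered 0 to 3 from 3 h to 10 h, 3 to 7 from 10 h to imminent division and 1 to 6 from 10 h to pre-S. Promoter calls numbered 1 to 4 from 10 h to pre-S and 1 to 5 between imminent division and pre-S. DIs numbered 3 to 41 from 10 h to imminent division, 0 to 3 from 10 h to pre-S and 0 to 2 between imminent division and pre-S.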
